A study of Homo sapiens with 6 samples.

Results

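The genes described here encode parts of the red cell membrane and carriers of blood group antigens: the glycophorin genes GYPB and GYPC, the skeleton genes SPTB, ANK1 and EPB42, the anion exchanger gene SLC4A1 (band 3), the Rh-associated glycoprotein gene RHAG and the Kell gene KEL. They were taken by gene name from a list of 31999 genes, and all 8 were found there. The RNA came from HEL, a human erythroleukemia cell line grown in RPMI with serum. A group of 3 libraries carried the control hairpin shCtrl, and a group of 3 carried shTMIGD2, a hairpin against TMIGD2, a receptor of the CD28 family; cells of both groups had thus been given a hairpin. The sample titles call the libraries of a group biological replicates, and HEL is a cultured leukemia line rather than a maturing red cell.

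The level available for each gene was 1 mean log2 CPM (fragments counted in a gene, scaled to the library total) over all 6 libraries, as the authors give it. It holds no value per library, so it gives no SD and no difference between shTMIGD2 and shCtrl for any gene. A gene that is high in 1 group and low in the other would show only its mean. The authors' own comparison of the groups was not used. The depth of each library is unknown from this list. The lowest listed level was 0.0736 CPM, which marks the bottom of the scale. Whether the level is a mean of log2 values or the log2 of a mean is not given. Whether a small offset was added to the counts is not given either. Such an offset would weigh most on low levels, such as that of SLC4A1, and on ratios to them. TMIGD2 itself stood at a mean log2 CPM of 4.08 over both groups, a value that cannot check the knockdown. In a bulk culture, fewer cells that express a gene and less RNA per cell cannot be told apart.

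The red cell membrane is held by a net of spectrin, whose beta chain is encoded by SPTB. Ankyrin (ANK1) ties this net to band 3, with the product of EPB42 beside it, and the EPB41 product ties it to glycophorin C. The Rh complex, in which RHAG carries the Rh antigens to the surface, and the Kell protein, a metalloprotease bound to XK, sit in the same membrane. Many of these genes are switched on during erythroid maturation, where GATA1 and KLF1 are leading transcription factors.

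Of the 8 genes, 7 stood at more than 10 CPM, and SLC4A1 alone was under 1 CPM. ANK1 had a mean log2 CPM of 9.43 (691 CPM), RHAG of 8.64 (400.0 CPM) and GYPC of 8.44 (347 CPM). SPTB followed at 7.45 (175 CPM). EPB42 stood at 6.11 (69.2 CPM), GYPB at 6.02 (64.8 CPM) and KEL at 5.56 (47.1 CPM). SLC4A1 stood at -0.19, or 0.878 CPM. ANK1, RHAG and GYPC were thus among the genes with most counted fragments in these cells, with 99.5%, 98.8% and 98.6% of the listed genes below them. SPTB had 96.4% below it, EPB42 89.2%, GYPB 88.5% and KEL 85.2%. SLC4A1 had 55.2% of the listed genes below it, and 30.04% of the 16173 listed genes that RefSeq gives as protein-coding. Of the genes that reached 1 CPM it had 0% below it, which its own level under 1 CPM fixed in advance. Over all 31999 listed genes, 43.8% reached 1 CPM and 9199 genes reached 10 CPM. Of the protein-coding genes, 69.2% reached 1 CPM. These places rest on fragments per gene, which grow with the length of a transcript.

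**Figure D1:**
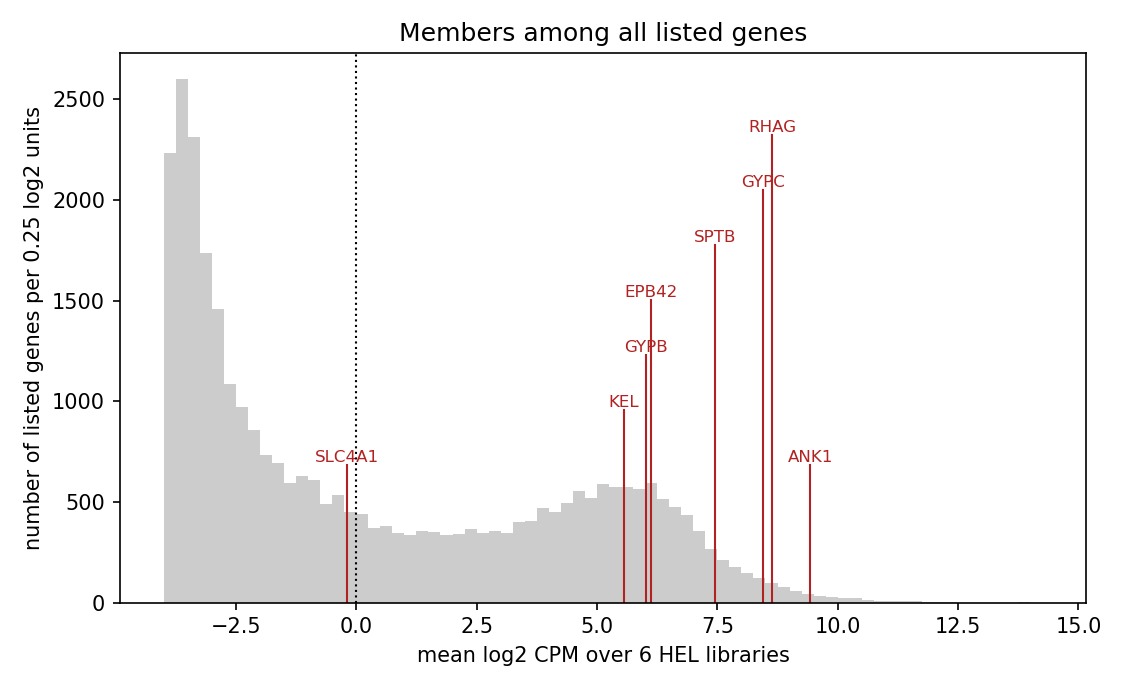
Histogram of the mean log2 CPM of all 31999 listed genes over 6 HEL libraries (x axis, in log2 CPM; y axis, genes per bin), with a red line at the level of each of the 8 genes; the height of a line has no meaning and the dotted line marks 1 CPM. SLC4A1, at -0.19, lies left of the dotted line, and the other 7 genes lie between 5.56 and 9.43.

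Per length, the order was another. The mean CPM was divided by the length in kb of the representative (Ensembl canonical) transcript in GENCODE 44, which ranges from 564 bases for GYPB to 10177 for SPTB. GYPC then led with 341 CPM per kb and RHAG came next with 211. GYPB had 115 CPM per kb and ANK1 83.4. EPB42 had 29.5, KEL 18.9 and SPTB 17.2 CPM per kb, and SLC4A1 was last with 0.177. The genes of short integral membrane proteins were thus at the head of the order, and the skeleton genes with long messages moved down. Since no spread between libraries is known, neighbours in this order, such as KEL and SPTB, cannot be told apart, and the ratios given below carry no error. With the coding length in place of the transcript length KEL and SPTB changed places, and with all exons of a gene merged RHAG (152 CPM per kb) stood before GYPC (96.2) and ANK1 (62.9) before GYPB (34.0). SLC4A1 was last with each of these lengths.

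Glycophorin C, which carries the Gerbich antigens and anchors the skeleton, is encoded on chromosome 2 (126656133 to 126696667 of GRCh38, plus strand), with 4 exons in its representative transcript. At 341 CPM per kb it was 5.65 times as high as EPB41, the gene of its skeletal partner, at 60.3. With merged exons this ratio was 5.29, and with the coding length it was 6.44. None of the words of 100 bases in its transcript was found in an annotated transcript of another gene, so no annotated copy was found with which reads of that length could be confused.

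Glycophorin B carries the S and s antigens. Its gene lies on chromosome 4 (143996104 to 144019380, minus strand, 5 exons), near GYPE (143870864 to 143905563), which arose in the same family by duplication. GYPE had a mean log2 CPM of 6.34. Per kb of transcript GYPB (115) was 2.40 times GYPE (47.9). This ratio hung on the length chosen, since with the coding length GYPB was 0.687 times GYPE and with merged exons 0.844 times, so that their order turned.

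The counts of these glycophorin genes are uncertain for a further reason, shown by the start of their coding sequence. The first 90 coding bases of GYPB and GYPE in GENCODE 44 were the same at 86 positions, and the longest run of identical bases between their transcripts was 65 bases. Coding bases 31 to 60, counted from the A of the start codon, are shown because they hold the first bases that part the genes. The capitals mark those positions, and the substitutions from GYPB to GYPE are A38G and T59C.
GYPB: ttgtcagAaattgtgagcatatcagcatTa
GYPE: ttgtcagGaattgtgagcatatcagcatCa
How the authors' counting treated reads that match more than 1 gene is not given in the sources used here, so the level of GYPB may include fragments of close copies or lack some of its own.

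SPTB, the beta spectrin gene, lies on chromosome 14 (64746283 to 64879907, minus strand, 36 exons) and stood at 17.2 CPM per kb. Its counterpart that is used outside red cells, SPTBN1, was at a like level, 17.5 CPM per kb. SPTB was 0.986 times SPTBN1 per kb of transcript, 0.997 times per coding kb and 1.23 times with merged exons. The end of the SPTB transcript overlaps PLEKHG3, which is read from the other strand, and 31.5% of its words of 100 bases stand there in reverse. The libraries were directional, but the strand setting of the counting is not given, so fragments of PLEKHG3 within SPTB were not told apart here. The level of SPTB, and each ratio to it, may include such fragments or lack some of its own.

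Ankyrin is encoded by ANK1 on chromosome 8 (41653220 to 41896741, minus strand), with 43 exons in the representative transcript and 16 annotated transcripts. ANK1 had the most fragments of the 8 genes, 38.5% of their summed CPM. Per kb it was 4.85 times SPTB, and between 4.85 and 5.32 times with the 3 lengths. It shared almost no sequence with other genes: 0.476% of its words of 100 bases stood in another gene's transcript, on the opposite strand.

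Band 3, the chloride and bicarbonate exchanger and the chief integral protein of the mature red cell membrane, is the product of SLC4A1 on the minus strand of chromosome 17 (44248390 to 44268141, 20 exons). Its level of 0.878 CPM lay within the wide range of 9 endothelial, epithelial, liver and fibroblast markers, from 0.0737 CPM for ALB to 152 for PECAM1 with a median of 0.169. It was above 7 of these markers and below CDH5 (1.24 CPM) and PECAM1, which is not confined to endothelial cells. Per kb of transcript SLC4A1, at 0.177, was above 6 of the 9, whose median was 0.0970. Some of these markers, such as ALB and COL1A2 (0.0946 CPM), lay near the bottom of the scale. There a value per kb mostly reflects the length, so this placing is weak. The genes of its partners stood far above it. Per kb of transcript, ANK1 was 470 times, EPB42 167 times and RHAG 1191 times SLC4A1. The lowest ratio with any of the 3 lengths was 367 for ANK1, 104 for EPB42 and 888 for RHAG. None of its words of 100 bases was shared with another gene. Of its words of 50 bases, 0.958% were shared, 0.897% on the same strand.

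EPB42, a transglutaminase-like protein without enzyme activity that binds band 3 and ankyrin, is encoded on the minus strand of chromosome 15 (43197227 to 43221018, 13 exons). It stood at 29.5 CPM per kb, between ANK1 and KEL. An annotated long noncoding RNA that overlaps it on the same strand holds 15.5% of its words of 100 bases, so this part of its count cannot be assigned by sequence.

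RHAG, on the minus strand of chromosome 6 (49605175 to 49636839, 10 exons), encodes the glycoprotein on which the Rh antigens depend. At 211 CPM per kb it was 2.68 times RHCE (78.7) and 5.57 times RHD (37.9), the genes of the RhCE and RhD proteins. With the other lengths these ratios ranged up to 3.30 for RHCE and down to 3.82 for RHD. RHD and RHCE are close copies. RHCE held 14.1% of the words of 50 bases of RHD and 3.24% of those of 100 bases, and RHD held 25.7% and 5.98% of those of RHCE, so the levels of both are uncertain. RHAG shared no word of either length with another gene. The family members used in kidney and other tissues, RHBG and RHCG, were near the bottom of the scale at 0.131 and 0.252 CPM.

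KEL, on the minus strand of chromosome 7 (142941114 to 142962363, 19 exons), encodes the Kell antigen carrier. It was lower than its partner XK: 18.9 against 28.1 CPM per kb of transcript. XK was 1.49 times KEL per kb of transcript, 2.18 times with merged exons and 5.08 times with the coding length, since much of the XK message lies outside its coding part. KEL shared no word of 100 bases with another gene.

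**Figure D2:**
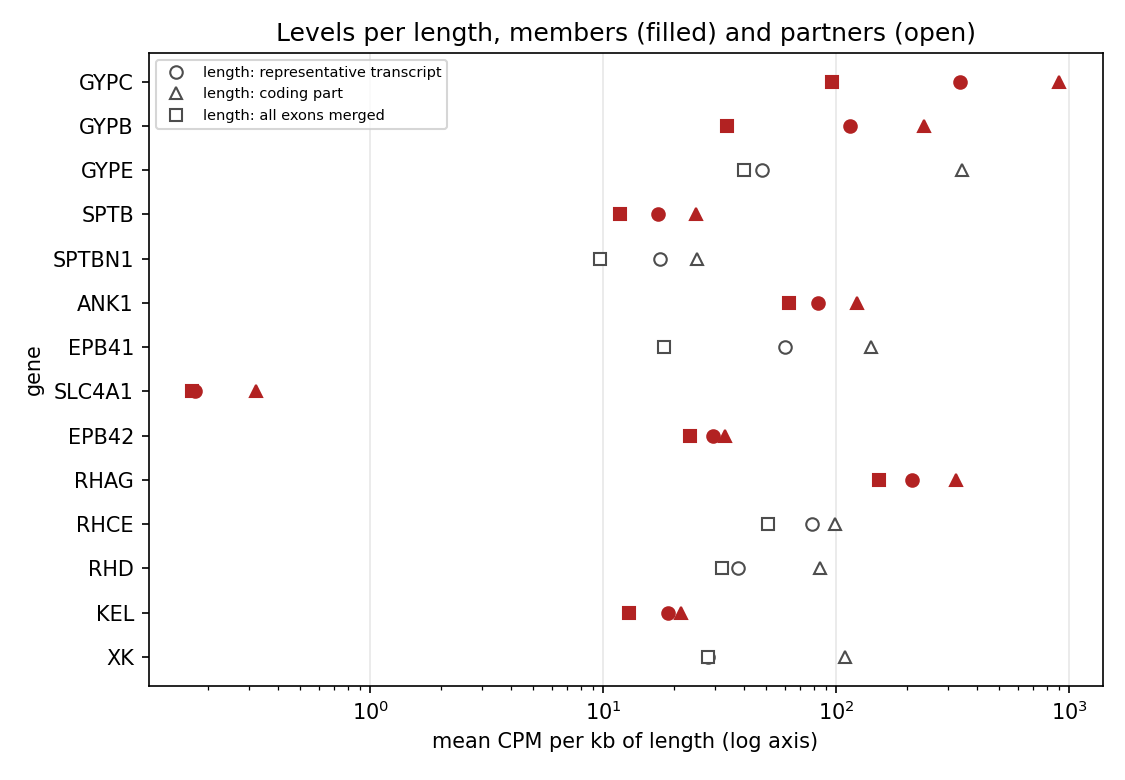
Mean CPM per kb (x axis, log scale) of the 8 genes (filled red) and of 6 partners or close copies (open), each with 3 lengths: the representative transcript (circles), its coding part (triangles) and all exons of the gene merged (squares); there is no error bar because no value per library was used. SLC4A1 lies near 0.177 by transcript length, and every other gene lies above 1 CPM per kb.

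**Figure D3:**
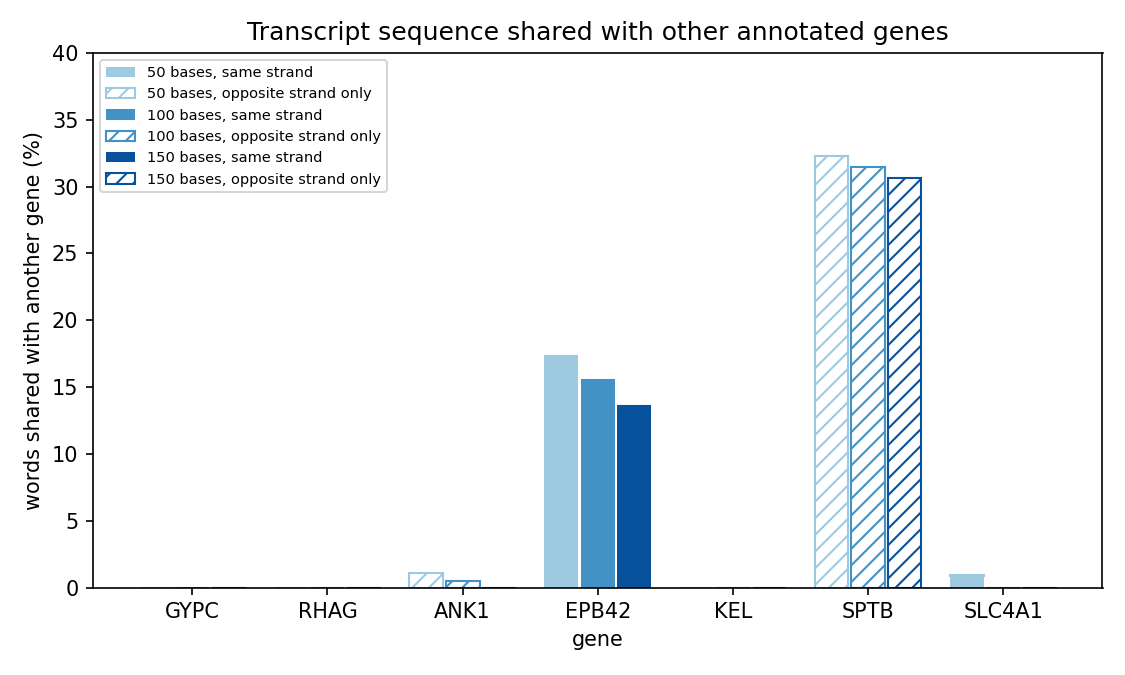
Share of the words of 50, 100 and 150 bases in the representative transcript of 7 of the 8 genes, without GYPB (y axis, percent) that also stand in an annotated transcript of another gene, on the same strand (solid) or only on the opposite strand (hatched). EPB42 shares 15.5% of words of 100 bases on the same strand, SPTB shares 31.5% on the opposite strand, and GYPC, RHAG and KEL share none.

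The promoters of 6 of the 8 genes, all but ANK1 and SLC4A1, were matched in the RefSeq table of GRCh38.p14 (250 bases before to 50 after the start). The letters AGATAA or TGATAA, the core that GATA factors recognise, were searched on both strands, and 5 of the 6 promoters held a match. Of all 34943 promoters of this length, 16.3% held one, and of 9496 promoters of genes at 1 CPM or more, 8.29%. GATA1 RNA stood at a mean log2 CPM of 7.97 in these cells and KLF1 at 7.62. The letters CACCC, which KLF1 and related factors recognise as part of a longer site, stood in all 6 promoters, against 59.8% of all promoters and 62.5% of those of genes at 1 CPM or more. The letters GGGCGG were searched too and, of the 6 promoters, stood in those of GYPC and SPTB alone. They stood in 44.9% of all promoters and 70.2% of those of genes at 1 CPM or more. The GATA matches are shown because their share among all promoters was the lowest of the motifs searched. Each line runs in the sense of the gene with the match in capitals, and RHAG has it in reverse.
GYPB: ggtgggcctggaAGATAAcagctagtaggc
SPTB: atgtccctcctcAGATAAtgttatttatat
EPB42: tcctggcacaagAGATAAaatgaacagggt
RHAG: agtcctttgttcTTATCAacatctcacagc
KEL: cctgagaagctgAGATAAagggggaggaga
KEL: ggtgccccccacTGATAAgcaggctccacc
The match began 42 bases before the start in SPTB, 61 in EPB42, 31 in RHAG, and 62 and 26 in KEL. In GYPB it spanned the start itself, from 4 bases before it. These windows lie at chr4:144019367-144019396 (GYPB), chr14:64879932-64879961 (SPTB), chr15:43221062-43221091 (EPB42), chr6:49636853-49636882 (RHAG), chr7:142962408-142962437 and chr7:142962372-142962401 (KEL), all on the minus strand. EPB42 had a further match 208 bases before its start. GYPC held no GATA match in this window. It had 18 CG pairs and SPTB 28, whereas GYPB had 2 and EPB42, RHAG and KEL had 1 each, against a median of 14 over all promoters. A match is no evidence that a factor binds there.

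Other genes of the red cell membrane were taken from a list of 46, of which 45 were listed and 40 stood at 1 CPM or more. This is 87.0% of the 46, with the gene that was not listed counted as not reaching it, beside 87.5% of the 8 genes described above. All of these genes are protein-coding, and 69.2% of the listed protein-coding genes reached that level. All 13 genes of the skeleton reached it. Per kb of transcript the highest were ACTB (actin, 2617), MPP1 (133) and TPM3 (126), and the lowest were TMOD1 (2.98), ADD2 (4.31) and ADD3 (4.51). All 12 channels, carriers and other band 3 partners reached 1 CPM as well. ABCC4 (131 CPM per kb), FLOT2 (114) and STOM (stomatin, 111) were the highest, and ABCG2 (0.660), ABCB6 (0.702) and the water channel gene AQP1 (0.951) the lowest. The remaining 21 genes were listed as blood group genes, though RHBG and RHCG are the Rh family members used in kidney and other tissues. Of these 21, 20 had an entry and 15 reached 1 CPM. This is 71.4% of the 21, whereas the 69.2% for protein-coding genes is over genes with an entry only. RHBG, RHCG, SLC14A1, ACHE and CD99 were below 1 CPM. BSG (118 CPM per kb), SMIM1 (the Vel antigen, 110) and RHCE (78.7) were the highest, and SLC14A1 (the Kidd urea transporter, 0.0322), RHBG (0.0734) and ACHE (0.112) the lowest. ICAM4 had no entry under that name. CD99 stood at 0.215 CPM. It has a copy on Y in the end that X and Y share, so its level is uncertain.

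The labelled cell type was checked with marker genes. Of 12 erythroid markers, 12 stood at 1 CPM or more, among them TFRC (mean log2 CPM 11.09), TAL1 (8.72) and ALAS2 (6.26). The globin genes HBG1 (9.72) and HBA1 (9.79) were high, though each has a near-identical copy that can share its reads, and the embryonic HBE1 (2.27) and HBZ (2.46) were low. All 5 megakaryocyte markers were present too, led by ITGA2B (10.54). Of 6 epithelial, liver and fibroblast markers, 0 reached 1 CPM, and ALB stood at 0.0737 CPM. CD3E, CD3D and MS4A1 had no entry, and the granulocyte genes MPO (-3.32) and ELANE (-3.57) were near the bottom of the scale. Markers listed for other lineages were not all low, though PECAM1 (7.24) is not confined to endothelial cells. LYZ stood at 4.40, CD2 at 2.95, CD79A at 2.32 and NCAM1 at 2.26. The part of cells with these markers in the levels above was not tested.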

How the data were processed

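Poly(A) RNA of 6 HEL libraries (3 shCtrl, 3 shTMIGD2, grouped by their titles) was sequenced. Per the paper's methods and the submitters' notes, reads were aligned to hg38 with STAR 2.6.1b and fragments per gene were counted with HTSeq 0.6.1 on a refSeq annotation. The authors' deposited table gives for each of 31999 genes a mean log2 CPM over both groups; 5484 names are clone-style names. The methods name DESeq2 and a minimum mean count of 1 in a group, while the column names are those of an edgeR test, and whether that filter was applied to this table, and its normalization, is not given in the sources used here. Its 4 other columns hold the authors' own comparison (log2 fold change, F statistic, p-value and adjusted p-value) and were not used. Counts per library were not analysed here, so the planned count test was not run and no test was made. Depth is unknown.

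CPM was computed as 2 to the power of the deposited log2 value, and divided by lengths from GENCODE 44 (GRCh38), which may differ from the authors' annotation. Shared words were searched on both strands of all GENCODE 44 transcripts; 3 word lengths were used because the read length is not given in the sources used here. Promoters are RefSeq's (GRCh38.p14). For the 6 genes described here, the promoter at the start of the representative transcript was taken. The shares over all promoters used all 34943 distinct promoters. Those over genes at 1 CPM or more used the first listed promoter of each of 9496 genes. These background promoters were not matched to representative transcripts, so they were chosen by another rule. Scripts (Python 3.11.15, pandas 2.3.3, scipy 1.17.1) were tested on simulated data. The genes and lists were chosen with earlier results of these data known. Named are all 8 genes, their partners and close copies, the 3 highest and 3 lowest per kb of each list, the markers and TMIGD2. ICAM4 and CD99 are named too, since their count or level is in doubt. Results for some genes of these lists are not reported here. Pathway genes that were among the 2 nearest in level to a member were also to be named, and 0 were found.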

Additional observations from a re-analysis of the deposited data

How the results depend on the processing

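The median share of listed genes below the 8 genes was 92.8%. It was 83.6% among the 14000 genes that reached 1 CPM and 86.4% among 16173 genes that RefSeq lists as protein-coding, since fewer genes with few fragments were ranked. For SLC4A1 these shares were 55.2%, 0% and 30.04%. The 0% was fixed in advance, since SLC4A1 lay under the 1 CPM that defined that set. It is 1 of the 8 values behind the median of 83.6%. Of the 28 pairs among the 8 genes, 27 kept their order per length with the coding length, 20 with no length correction and 26 with merged exons, the last chosen after seeing the data. Of the 46 genes in the list of other red cell genes, RHBG and RHCG among them, 45 stood at 0.1 CPM or more. At 10 CPM or more there were 35, against 40 at 1 CPM. Of all 31999 listed genes, 24966 stood at 0.1 CPM or more and 9199 at 10 CPM or more. No paired analysis was possible because the values used are means over all libraries. For the same reason DESeq2, the fit with no filter on low counts, the replicate block and leaving out each library were not run. The values have no counting error or spread that could be computed, and levels near 0.0736 CPM, the bottom of the scale, cannot be told from no expression.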
